A study of Mus musculus with 20 samples.

Results

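Mx1, Mx2, Rsad2, Cmpk2, Isg15, Isg20, Usp18, Herc6, Ifi44 and Bst2 are 10 antiviral effector genes that cells switch on in response to interferon. They were taken by gene symbol from the deposited table of macrophage gene counts, where each symbol stood on 1 line, so that 10 of the 78409 genes listed (34373 of them with a count in at least 1 library) are described here. All 10 were measured in every one of the 20 libraries, at 4 to 23067 counts, and all 10 passed the filter on low counts in every comparison.

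Type I interferon binds its receptor on the cell surface and sets off a signalling cascade that ends at a short promoter element, the interferon-stimulated response element. The effectors made in response block viruses at different steps. Mx proteins are large GTPases that trap viral ribonucleoprotein, viperin (the product of Rsad2) converts CTP into a chain-terminating nucleotide, and its chromosomal neighbour Cmpk2 phosphorylates nucleoside monophosphates. ISG15 is a ubiquitin-like protein that HERC6 attaches to other proteins in the mouse and USP18 removes, and USP18 also dampens signalling from the interferon receptor. ISG20 is an exonuclease that degrades RNA, tetherin (the product of Bst2) holds budding virus at the cell membrane, and IFI44 is an interferon-induced protein whose role is less settled. In macrophages the same genes serve as a readout of interferon signalling in the absence of a virus.

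The question put to these libraries was how material in inflamed airway fluid, with or without the Y RNA RNY1, changes transcription in macrophages. All cells were bone marrow-derived macrophages (BMDMs) grown from the marrow of female wild-type C57BL/6J mice with conditioned medium of L929 fibroblasts, plated at 200000 cells per well and treated on day 7 of culture in medium without serum. The bronchoalveolar lavage fluid (BALF) came from mice with airway inflammation induced by ovalbumin (OVA), either RNY1+/+ or RNY1-/- (a knockout made with CRISPR). It had been separated by size exclusion into a fraction enriched in extracellular vesicles (EVFx) and a fraction enriched in protein (ProteinFx). Thus 5 groups of 4 libraries were compared: BMDMs given PBS, RNY1+/+ EVFx, RNY1-/- EVFx, RNY1+/+ ProteinFx or RNY1-/- ProteinFx. The genotype is that of the fluid's donors, and no group carried a change of genotype in the macrophages themselves. The study obtained its knockout mice from GemPharmatech and describes its other mice as wild-type C57BL/6J from JAX. It does not say if the RNY1+/+ donors were littermates, so source colony and genotype cannot be told apart. EVFx was given at 35000000 particles per µL and ProteinFx at 0.75 µg of protein per µL, after 5 days at 4 °C, so doses were matched between genotypes but not between fractions. All fluid came from OVA-challenged mice, and the PBS group received no airway fluid. The study's methods give an age range for its mice as a whole and none per group, and the labels do not give the hours of treatment. The names of all 20 libraries share 1 prefix. The labels leave unstated if replicates stem from separate fluid pools, mice or wells. The p-values below thus measure the spread between these libraries only. C57BL/6J, like most inbred strains, carries defective Mx alleles, and Mx values below are transcript levels only.

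Libraries held 2510005 to 8277366 counts. The counts are of molecules read near the 3′ end of polyadenylated transcripts, and levels are given as CPM (the count divided by the library's total and scaled to 1000000), which were compared between libraries and not between genes. All 10 macrophage markers examined (Csf1r, Adgre1, Mertk and others) were above 3 counts in some library of every group, with summed levels of 8725 to 14860 CPM. Of 8 neutrophil markers, 3 to 4 per group were at or under 3 counts in every library of the group (Ly6g, Elane and Mpo in all 5), and the summed level of the 8 was 143 to 354 CPM. The same held for 3 to 4 of 5 eosinophil markers (0.801 to 21.4 CPM in sum), 3 of 5 markers of airway epithelium (2.18 to 15.9 CPM), 4 of 5 of T cells (0.259 to 9.43 CPM), 2 to 3 of 4 of B cells (1.04 to 3.78 CPM) and 0 of 4 of fibroblasts (10.6 to 51.3 CPM). The part of such cells in the results was not tested. Libraries stood furthest apart within 2 of the groups. PBS replicate 3 differed from replicates 1 and 2 by 31.5 and 34.7 times the squared difference that counting alone gives per gene, against 2.3 between these replicates themselves, and replicates 1 and 2 of RNY1-/- ProteinFx differed from replicates 3 and 4 by 13.3 to 15.7 times, against 3.49 and 2.57 within each pair. For the 10 genes, the main results that rest on these libraries are given with and without them. Those of the other gene lists are given mostly with all libraries. In bulk RNA, fewer responding cells and less RNA per cell cannot be told apart.

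Promoter sequence was available from RefSeq (GRCm38.p6; 250 bases before to 50 after each start site) for 7 of the 10 genes, in 9 windows. The letters GAAANNGAAA, the core of the interferon-stimulated response element, were searched for on both strands, with overlapping matches counted separately. Matches were found in the windows of Isg15, Bst2 and Rsad2, and in 3.44% of all 32851 promoter windows. These stretches are shown because the rise of these 3 genes against PBS, given below, differed widely in size. Capitals mark the matches, and each line reads 5′ to 3′ on the gene's own strand.
Isg15: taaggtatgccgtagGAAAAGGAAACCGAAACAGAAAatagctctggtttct
Bst2: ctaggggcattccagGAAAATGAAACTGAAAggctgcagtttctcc
Rsad2: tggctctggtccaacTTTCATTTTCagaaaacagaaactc

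The Isg15 stretch lies on the minus strand at chr4:156200860-156200911, from 93 to 42 bases before the start site, and holds 3 matches that overlap in 1 run. Bst2 had 2 overlapping matches at chr8:71537572-71537617 on the minus strand, 145 to 100 bases before its start. Only 0.225% of all windows held 2 or more matches. Rsad2 had 1 match, read on the opposite strand, at chr12:26456548-26456587 of its minus strand, 135 to 96 bases before the start. The windows of Cmpk2, Isg20, Herc6 and Ifi44 held no match of these exact letters.

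Against PBS, the effectors rose in all 4 fraction groups. In BMDMs given RNY1+/+ EVFx, 10 of 10 rose past both limits (edgeR, adjusted p under 0.05 over all genes tested and a log2 fold change above 1), where 8.24% of all genes tested did. With RNY1+/+ ProteinFx, 10 of 10 rose, against 8.96% of all genes. With RNY1-/- EVFx, 9 of 10 rose (all genes, 9.02%), and with RNY1-/- ProteinFx, 9 of 10 rose (all genes, 6.31%). Bst2 was the gene that did not pass in both RNY1-/- groups. The median log2 fold change over the 10 was 4.35 with RNY1+/+ ProteinFx, 3.77 with RNY1-/- EVFx, 3.59 with RNY1+/+ EVFx and 3.22 with RNY1-/- ProteinFx, where the median over all genes lay between -0.0317 and -0.0284. These 4 comparisons share the same 4 PBS libraries. Over all genes the change against PBS fell with the GC content of the transcript, with a Spearman's rho across genes of -0.457 for RNY1+/+ ProteinFx, -0.424 for RNY1-/- EVFx, -0.495 for RNY1-/- ProteinFx and -0.0934 for RNY1+/+ EVFx. With smooth trends in length and GC content taken out of each library, 10 of 10 genes rose by adjusted p in all 4 groups, with medians of 4.39, 3.52, 3.16 and 3.47 in the same order. Without PBS replicate 3, 10 genes rose with RNY1+/+ EVFx and 9 in each of the other 3 groups. The 10 genes were chosen as interferon-responsive, and earlier results of these data were known, so their joint rise is a description of the choice as well as of the cells.

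**Figure D1:**
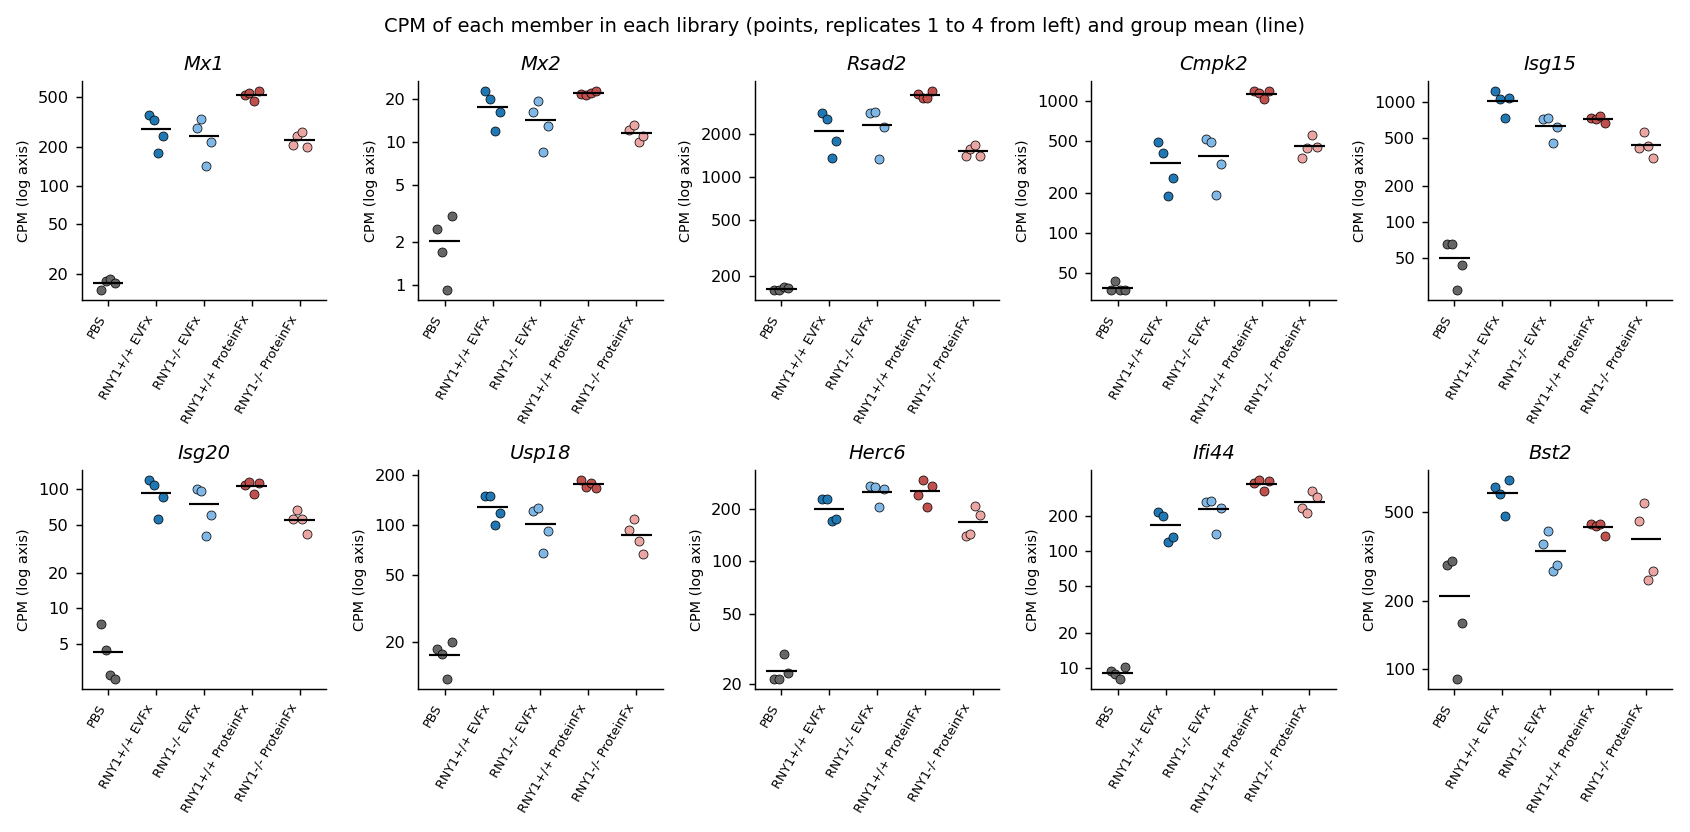
CPM of each gene (log axis) in each of the 20 libraries, with 4 points per group in replicate order and a line at the group mean. In every panel except that of Bst2 all 16 fraction libraries lie above all 4 PBS libraries, as they did for 6.06% of the genes tested in all 4 comparisons with PBS, and RNY1+/+ ProteinFx has the highest group mean in 8 of the 10 panels.

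**Figure D2:**
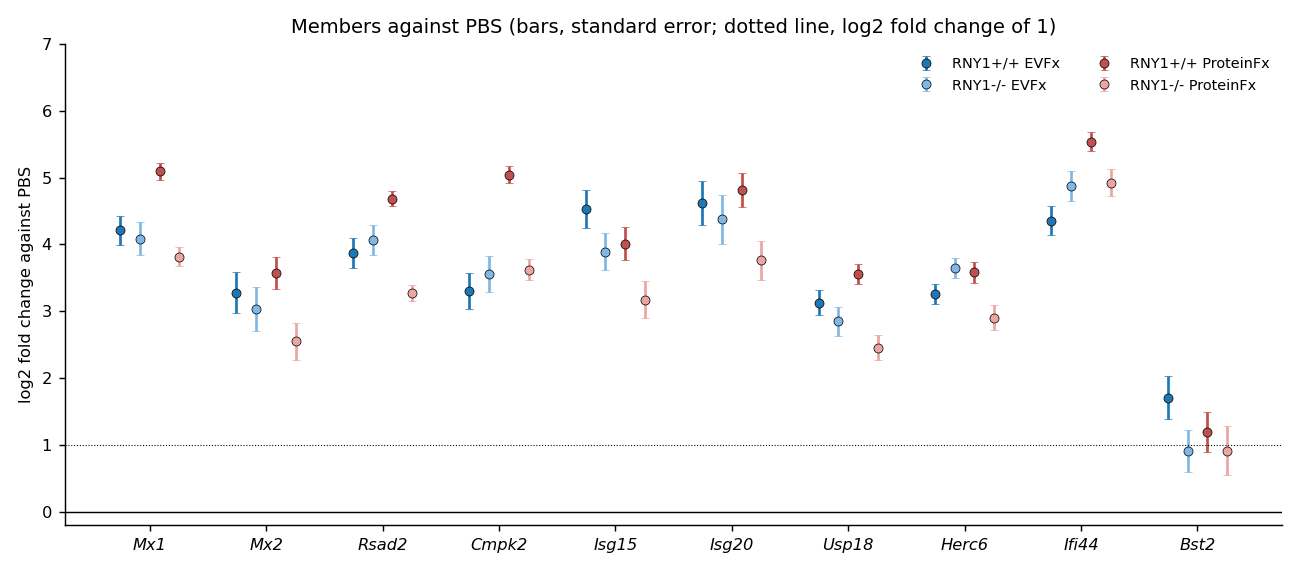
Log2 fold change against PBS (y axis) of each gene (x axis) in the 4 fraction groups, with standard errors as bars and a dotted line at 1. RNY1+/+ ProteinFx reaches 5.54 for Ifi44, 5.09 for Mx1 and 5.05 for Cmpk2, and the 4 values of Bst2 lie between 0.90 and 1.71.

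The Mx GTPases were at low levels in PBS-treated cells. Mx1 stood at 14.96, 17.6, 18.5 and 17.1 CPM in PBS replicates 1 to 4. With RNY1+/+ EVFx it stood at 362, 326, 182 and 246 CPM, and with RNY1-/- EVFx at 285, 335, 142 and 219 CPM. The EVFx groups overlapped each other and lay far above PBS, with replicate 3 the lowest in both. With RNY1+/+ ProteinFx, Mx1 stood at 513, 537, 466 and 555 CPM, and with RNY1-/- ProteinFx at 207, 248, 263 and 199.8 CPM. The 4 RNY1+/+ ProteinFx libraries were thus above all others, and the RNY1-/- ProteinFx libraries lay within the range of the EVFx groups. On the log2 scale Mx1 rose against PBS by 5.09 ± 0.13 (standard error) with RNY1+/+ ProteinFx, by 4.21 ± 0.22 with RNY1+/+ EVFx, by 4.09 ± 0.25 with RNY1-/- EVFx and by 3.82 ± 0.14 with RNY1-/- ProteinFx. Between genotypes it was lower with RNY1-/- ProteinFx (log2 fold change -1.26 ± 0.12, adjusted p = 0.000126), and its EVFx difference was -0.12 ± 0.23, adjusted p = 0.693.

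Mx2, which lies beside Mx1 in the genome, was the least counted of the genes, with 4 counts in the lowest library. Its PBS libraries held 2.46, 1.70, 0.915 and 3.03 CPM, those of RNY1+/+ EVFx 22.7, 19.8, 12.01 and 16.2 CPM and those of RNY1-/- EVFx 16.2, 19.4, 8.50 and 12.9 CPM. RNY1+/+ ProteinFx gave 21.8, 21.3, 21.9 and 22.7 CPM, a spread of 2.71% of the mean (coefficient of variation), and RNY1-/- ProteinFx gave 12.1, 13.2, 9.96 and 11.02 CPM. All fraction libraries were above all PBS libraries, and the 2 ProteinFx groups did not overlap. The genotype difference in ProteinFx (-0.996 ± 0.13, adjusted p = 0.000785) missed the fold limit by less than its standard error, and that in EVFx was -0.23 ± 0.22, adjusted p = 0.393. Against PBS, Mx2 rose by 2.55 to 3.57 over the 4 fraction groups.

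Rsad2, which encodes viperin, was already transcribed in PBS-treated cells, at 160.3, 159, 169 and 165 CPM, with a coefficient of variation of 2.71%. It reached 2794, 2535, 1351 and 1772 CPM with RNY1+/+ EVFx and 2822, 2854, 1333 and 2236 CPM with RNY1-/- EVFx. Both EVFx groups spread over a range of about the same width, with replicate 3 at the bottom of each. With RNY1+/+ ProteinFx, Rsad2 stood at 3807, 3565, 3556 and 4002 CPM, above every other library, and with RNY1-/- ProteinFx at 1396, 1571, 1667 and 1399.6 CPM. Its log2 fold change against PBS was 4.68 ± 0.12 with RNY1+/+ ProteinFx and 3.28 ± 0.12 with RNY1-/- ProteinFx, the highest and lowest of its 4 fraction groups. The genotype difference was -1.39 ± 0.11, adjusted p = 8.46e-05 in ProteinFx and 0.20 ± 0.24, adjusted p = 0.5 in EVFx.

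Cmpk2 followed the same order in ProteinFx. PBS libraries held 37.3, 43.3, 37.1 and 37.01 CPM, of which replicate 2 was set apart from the other 3. RNY1+/+ EVFx gave 493, 404, 189.8 and 261 CPM and RNY1-/- EVFx 519, 488, 195 and 334 CPM, again with replicate 3 lowest in both groups. RNY1+/+ ProteinFx gave 1185, 1146, 1028 and 1188 CPM, and RNY1-/- ProteinFx gave 369, 443, 550.2 and 449 CPM. The RNY1+/+ ProteinFx libraries were all more than 1.5 times any other library. Between genotypes, Cmpk2 was lower with RNY1-/- ProteinFx (-1.41 ± 0.14, adjusted p = 0.000126), and did not pass in EVFx (0.26 ± 0.29, adjusted p = 0.48). The neighbours Rsad2 and Cmpk2 did not keep 1 ratio across treatments. The ratio of their CPM is followed here from library to library only, since at 1 library it is not a ratio of molecules. Cmpk2 CPM came to 21.9% to 27.1% of Rsad2 CPM in PBS libraries, 14.1% to 17.7% with RNY1+/+ EVFx, 14.6% to 18.4% with RNY1-/- EVFx, 28.9% to 32.1% with RNY1+/+ ProteinFx and 26.4% to 33% with RNY1-/- ProteinFx. The libraries of both EVFx groups lay below those of all other groups in this ratio, whatever the genotype.

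Isg15, the ubiquitin-like modifier, differed from the genes above in which group was highest. PBS libraries held 65.8, 65.96, 26.99 and 43.8 CPM, with replicate 3 the lowest. RNY1+/+ EVFx gave 1245, 1064, 737 and 1093 CPM and RNY1-/- EVFx 733, 742, 462 and 619 CPM. The RNY1-/- EVFx libraries lay at or below the lowest RNY1+/+ EVFx library except for replicate 2, which was just above it. With ProteinFx, Isg15 stood at 735, 730.3, 768 and 679 CPM for RNY1+/+ and 416, 565, 429.7 and 343 CPM for RNY1-/-, without overlap. The rise against PBS was 4.53 ± 0.29 with RNY1+/+ EVFx and 4.01 ± 0.24 with RNY1+/+ ProteinFx. RNY1-/- libraries were lower in both fractions by adjusted p but within the fold limit, at -0.63 ± 0.16, adjusted p = 0.00614 in EVFx and -0.82 ± 0.13, adjusted p = 0.00282 in ProteinFx. In 15 of 20 libraries the Isg15 count was fractional, since reads that map to several places were shared out, so its level carries that uncertainty.

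Herc6, the ligase for ISG15, was at 21.2, 21.2, 29.4 and 22.95 CPM in PBS libraries, here with replicate 3 the highest. It was at 226, 228, 170.2 and 174 CPM with RNY1+/+ EVFx and 268, 267, 203 and 257 CPM with RNY1-/- EVFx, where all but replicate 3 were above every RNY1+/+ EVFx library. ProteinFx gave 239, 293, 204 and 269 CPM for RNY1+/+ and 140.4, 143, 207 and 183 CPM for RNY1-/-, and these groups overlapped at 1 library each. Against PBS, Herc6 rose by 2.90 to 3.64 in the 4 fraction groups. The genotype difference pointed up in EVFx (0.39 ± 0.12, adjusted p = 0.0145) and down in ProteinFx (-0.66 ± 0.16, adjusted p = 0.0293), both within the fold limit. In 13 of 20 libraries its count was fractional.

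Usp18, which takes ISG15 off its targets, held 18.03, 16.8, 11.9 and 19.9 CPM in PBS libraries, 149.6, 149.5, 100.1 and 119 CPM with RNY1+/+ EVFx and 121, 127, 67.98 and 92.03 CPM with RNY1-/- EVFx. The 2 EVFx groups overlapped. With RNY1+/+ ProteinFx it held 188, 170.1, 179 and 167 CPM and with RNY1-/- ProteinFx 94.3, 109.5, 80.5 and 67.4 CPM, so that the RNY1+/+ ProteinFx libraries stood above all others. It was lower with RNY1-/- ProteinFx than with RNY1+/+ ProteinFx (-1.09 ± 0.13, adjusted p = 0.000353), and its EVFx difference was -0.27 ± 0.17, adjusted p = 0.198. Thus the modifier, its ligase and its protease rose together against PBS, while the group with the highest mean was RNY1+/+ EVFx for Isg15 and RNY1+/+ ProteinFx for Herc6 and Usp18.

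Isg20, the exonuclease, was near the limit of counting in PBS libraries, at 7.38, 4.48, 2.74 and 2.55 CPM. It reached 121, 109.7, 56.4 and 85.7 CPM with RNY1+/+ EVFx and 101, 97.2, 40.6 and 61.4 CPM with RNY1-/- EVFx. These ranges overlapped, with replicate 3 lowest in both. RNY1+/+ ProteinFx gave 109, 117, 91.8 and 112 CPM and RNY1-/- ProteinFx 56.5, 67.1, 56.4 and 42.2 CPM, without overlap. Isg20 rose against PBS by 4.81 ± 0.25 with RNY1+/+ ProteinFx and by 4.62 ± 0.33 with RNY1+/+ EVFx, and fell between genotypes in ProteinFx (-1.03 ± 0.13, adjusted p = 0.000683), where its EVFx difference was -0.23 ± 0.25, adjusted p = 0.45. Its count was fractional in 15 of 20 libraries.

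Ifi44 and Isg20 rose furthest of the 10 with RNY1-/- EVFx, and which of them was ahead depended on the GC trend. As fitted, the log2 fold change of Ifi44 was 4.87 and that of Isg20 4.38, and with trends removed they were 4.41 and 5.02. Ifi44 stood at 9.43, 8.81, 8.01 and 10.1 CPM with PBS, at 214, 197, 119.9 and 130.5 CPM with RNY1+/+ EVFx and at 263, 269.7, 139 and 234 CPM with RNY1-/- EVFx. In EVFx the RNY1-/- mean was the higher one, although replicate 3 lay inside the RNY1+/+ range. With RNY1+/+ ProteinFx it stood at 383, 407, 323 and 395 CPM and with RNY1-/- ProteinFx at 231, 211, 324 and 288 CPM, where replicates 3 and 4 were higher than replicates 1 and 2 and replicate 3 reached the RNY1+/+ range. The rise against PBS was 5.54 ± 0.14 with RNY1+/+ ProteinFx, 4.92 ± 0.20 with RNY1-/- ProteinFx, 4.87 ± 0.23 with RNY1-/- EVFx and 4.36 ± 0.22 with RNY1+/+ EVFx. Its genotype difference was 0.53 ± 0.21, adjusted p = 0.0478 in EVFx and -0.60 ± 0.15, adjusted p = 0.0366 in ProteinFx, of opposite sign.

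Bst2, which encodes tetherin, stood apart from the other 9. PBS libraries already held 291, 303, 89.7 and 160.0 CPM, with replicate 3 at the bottom. RNY1+/+ EVFx gave 649, 606, 479.7 and 700.2 CPM, above every other group's mean, and RNY1-/- EVFx gave 362, 412, 274 and 289 CPM. The 2 EVFx groups did not overlap, and 2 of the 4 RNY1-/- EVFx libraries were below the highest PBS library. RNY1+/+ ProteinFx gave 445, 434, 445 and 394 CPM and RNY1-/- ProteinFx 457, 549, 249 and 272 CPM. In the last group replicates 1 and 2 lay above the RNY1+/+ ProteinFx libraries and replicates 3 and 4 below them, inside the PBS range. Bst2 rose against PBS by 1.71 ± 0.32 with RNY1+/+ EVFx (adjusted p = 0.00122) and by 1.19 ± 0.30 with RNY1+/+ ProteinFx (adjusted p = 0.00579), and its values in the RNY1-/- groups were 0.90 ± 0.31, adjusted p = 0.0281 in EVFx and 0.91 ± 0.37, adjusted p = 0.075 in ProteinFx.

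The calls of Bst2 depended on single libraries and settings. Without PBS replicate 3 the log2 fold change of Bst2 with RNY1+/+ ProteinFx was 0.94, under the fold limit. With RNY1-/- EVFx it passed both limits without PBS replicate 1 (1.11) or replicate 2 (1.13). In this comparison same-numbered libraries deviated together, and with the replicate number as a block Bst2 passed (1.03, adjusted p = 7.99e-04), so that 10 of 10 genes rose. After removal of the length and GC trends described below, Bst2 stood at 1.51 with RNY1-/- EVFx (adjusted p = 6.14e-05) and 1.495 with RNY1-/- ProteinFx (adjusted p = 3.24e-04). Plasmacytoid dendritic cells carry tetherin without stimulation, and 2 of 4 markers examined for them, Siglech and Ly6d, were at or under 3 counts in all 16 fraction libraries. The summed level of the 4 markers was 235 to 365 CPM in PBS libraries, 140 to 242 CPM in EVFx libraries and 356 to 490 CPM in ProteinFx libraries, and its part in the values of Bst2 was not tested.

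Between genotypes in EVFx, 0 of the 10 genes passed both limits in edgeR, where 2.35% of all genes tested did in either direction, and DESeq2 also called 0. At an unadjusted p under 0.05 there were 4 of 10, against 58.4% of all genes. By adjusted p alone, Herc6 and Ifi44 were higher with RNY1-/- EVFx (2 of 10, against 25.5% of all genes) and Isg15 and Bst2 lower (2 of 10, against 26.6%). With DESeq2, and with scaling by library totals alone, 1 was higher and 2 lower. Without RNY1+/+ EVFx replicate 4 or without RNY1-/- EVFx replicate 4, 0 were higher and 2 lower. With the replicate number as a block 4 were higher and 4 lower, and with no filter on low counts 2 were higher and 4 lower. Shares of all genes by adjusted p alone were not taken in these other settings. In the reported fit, the share of these genes past adjusted p was in neither direction above that of all genes. The median over the 10 was -0.17 beside -0.0012 over all genes.

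The direction of these small EVFx differences ran with the base composition of the transcripts. Over all genes tested, the log2 fold change between genotypes in EVFx fell with GC content (Spearman's rho -0.654 across genes, which are not independent and share the same 8 libraries), and over the 10 genes rho was -0.879 with GC content and 0.891 with transcript length. Herc6 and Ifi44, at 39.4% and 40.4% GC in the longest annotated transcript, had the highest values, and Isg15 and Bst2, at 52.8% and 55.3% GC, the lowest. Isg20 had the highest GC content, 57.4%, and a difference of -0.23. Length and GC contents came from an annotation of GRCm38 and were found for 97.1% of the genes tested. When smooth trends with length and GC content were taken out of each library, 1 of 10 genes passed by adjusted p, Bst2, which was lower (-0.41 ± 0.11, adjusted p = 0.0135). Isg15 then stood at -0.36 ± 0.16, adjusted p = 0.0926, Herc6 at 0.01 ± 0.11, adjusted p = 0.941 and Ifi44 at 0.21 ± 0.20, adjusted p = 0.441. Isg20 changed sign, from -0.23 to 0.24. What gave rise to the trend was not tested.

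**Figure D3:**
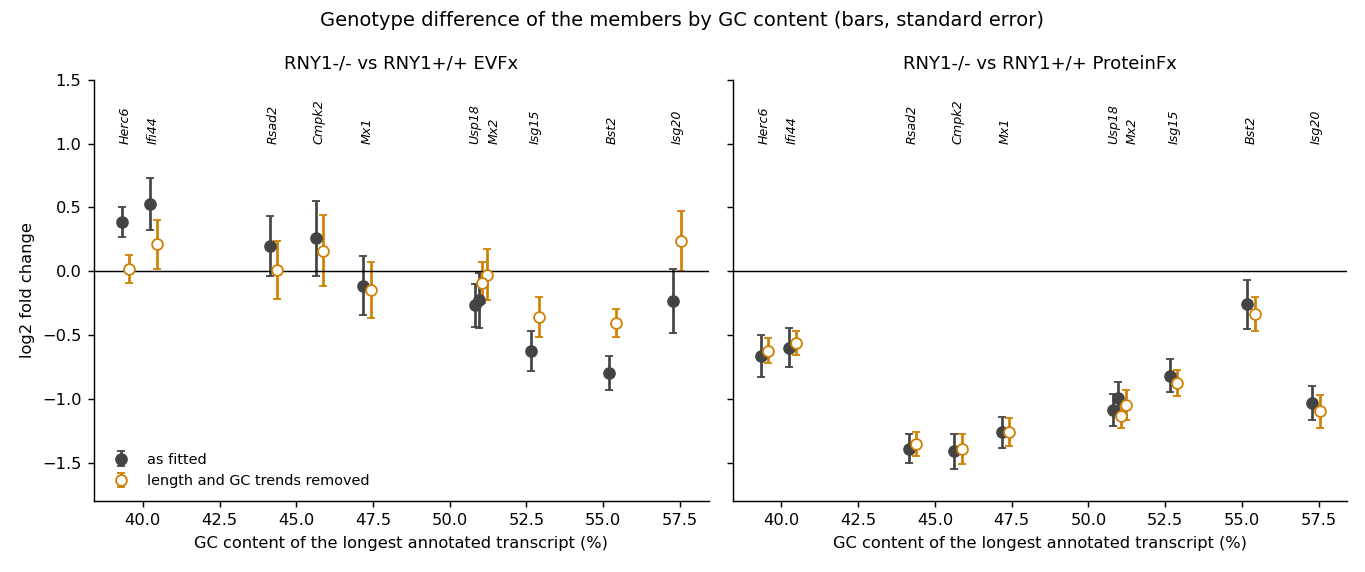
Log2 fold change of RNY1-/- against RNY1+/+ (y axis) by GC content of the transcript (x axis) for the 10 genes in EVFx (left) and ProteinFx (right), as fitted (filled) and with length and GC trends removed (open), with standard errors as bars. The filled EVFx points fall from left to right, the open ones lie between -0.41 and 0.24, and in ProteinFx the filled and open points nearly coincide.

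Between genotypes in ProteinFx the effectors were lower when the fluid came from RNY1-/- mice. Mx1, Rsad2, Cmpk2, Isg20 and Usp18 passed both limits (5 of 10, where 1.17% of all genes were called lower), and 9 of 10 were lower by adjusted p alone, against 3.37% of all genes. Bst2 (-0.26 ± 0.19, adjusted p = 0.517) was the gene that did not pass. All 10 log2 fold changes were below 0, with a median of -1.02 beside 0.0188 over all genes, and for 7 of 10 genes every RNY1+/+ ProteinFx library lay above every RNY1-/- ProteinFx library, as did 4.96% of all genes tested. The remaining 3, Herc6, Ifi44 and Bst2, overlapped. Over all genes the difference rose only weakly with GC content (Spearman's rho 0.156 across genes), and with the trends removed the 10 genes had a median of -1.07 and 9 were lower by adjusted p.

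The number past both limits moved with how the RNY1-/- ProteinFx libraries were used, since several values lay close to a log2 fold change of -1. With replicates 1 and 2 of this group alone it was 3 of 10, where 253 of 10482 genes tested were called lower. With replicates 3 and 4 alone it was 6 of 10 (all genes, 121 of 10393). Without replicate 4 it was 3 (all genes, 113 of 10491), as Isg20 (-0.94) and Usp18 (-0.99) came inside the limit. Scaling by library totals alone also gave 3 (all genes, 99 of 10471). By adjusted p alone, 9 of 10 genes were lower with replicates 1 and 2 alone and 8 of 10 with replicates 3 and 4 alone. That number was 7 of 10 with scaling to the reference genes, with the replicate number as a block, and without any 1 of RNY1+/+ ProteinFx replicates 1, 2 and 4 or RNY1-/- ProteinFx replicates 1 and 2. For these settings no share of all genes by adjusted p alone was taken. Bst2 was the gene whose sign depended on the pair, at 0.09 with replicates 1 and 2 alone.

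**Figure D4:**
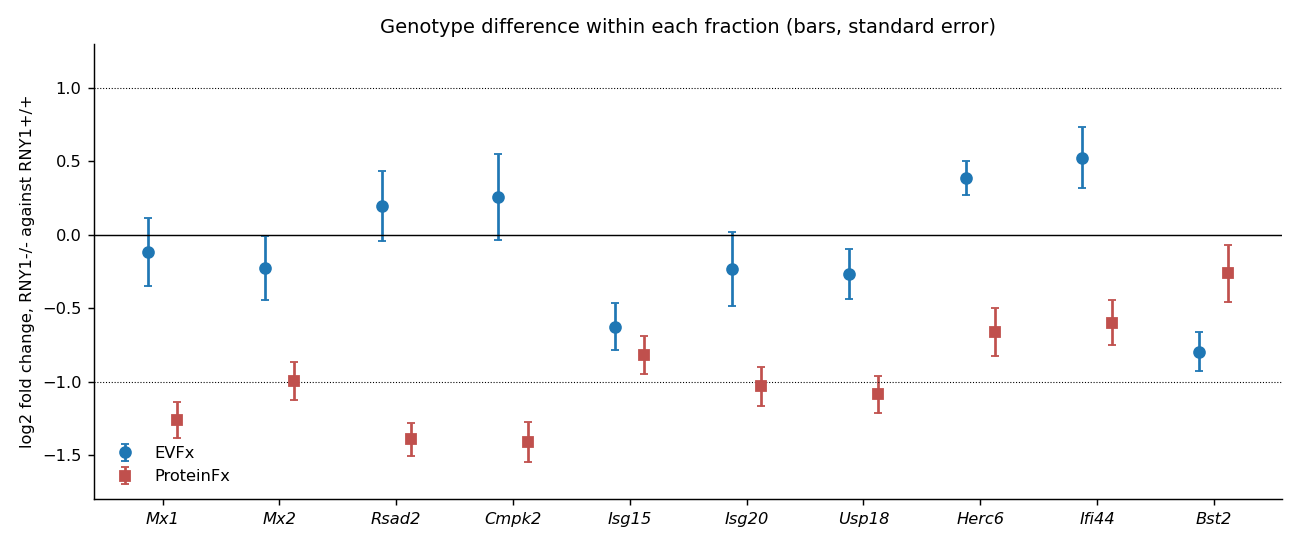
Log2 fold change of RNY1-/- against RNY1+/+ (y axis) for each gene (x axis) in EVFx (circles) and ProteinFx (squares), with standard errors as bars and dotted lines at 1 and -1. The EVFx values lie between -0.80 and 0.53 and the ProteinFx values between -1.41 and -0.26.

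Whether the genotype difference itself differed from EVFx to ProteinFx was tested with an interaction term in a fit of the 16 fraction libraries. It passed both limits for Cmpk2 (-1.67 ± 0.37, adjusted p = 0.00529), Rsad2 (-1.59 ± 0.30, adjusted p = 0.00283), Mx1 (-1.15 ± 0.29, adjusted p = 0.00967), Ifi44 (-1.13 ± 0.29, adjusted p = 0.0097) and Herc6 (-1.06 ± 0.22, adjusted p = 0.00393). In each the RNY1-/- difference was lower in ProteinFx than in EVFx (5 of 10, where 2.46% of all genes were called in that direction). By adjusted p alone 7 of 10 passed, with Usp18 (-0.82 ± 0.23) and Mx2 (-0.77 ± 0.28), against 16.2% of all genes. Isg20 (-0.80 ± 0.33, adjusted p = 0.0649), Isg15 (-0.20 ± 0.22, adjusted p = 0.501) and Bst2 (0.53 ± 0.26, adjusted p = 0.11) did not pass. The interaction carried a GC trend as well, with rho 0.585 over all genes. With trends removed 5 of 10 again passed both limits, now Mx1, Rsad2, Cmpk2, Isg20 (-1.32) and Usp18 (-1.02), while Herc6 (-0.64) and Ifi44 (-0.77) passed by adjusted p alone. Without RNY1+/+ EVFx replicate 3, 3 of 10 passed both limits, where 251 of 10452 genes tested were called lower. With RNY1-/- ProteinFx replicates 3 and 4 alone 2 of 10 did, where 59 of 10402 genes tested were called lower. There 3 of 10 passed by adjusted p alone, and the adjusted p of Cmpk2 was 0.0527, that of Mx1 0.0717 and that of Ifi44 0.0987. With replicates 1 and 2 of that group alone, 6 of 10 were lower and 1 higher by adjusted p alone. The share of all genes by adjusted p alone was not taken in these settings, so those counts cannot be read as particular to the 10 genes.

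Between the fractions of 1 genotype the doses were set on different scales, so these values compare the preparations as given. With RNY1+/+ fluid, Cmpk2 (1.75 ± 0.21, adjusted p = 5.8e-06) and Ifi44 (1.19 ± 0.16, adjusted p = 1.36e-05) were higher with ProteinFx past both limits (2 of 10, against 6.71% of all genes). By adjusted p alone 6 were higher, with Mx1, Rsad2, Usp18 and Herc6 added (all genes, 31.1%), and Isg15 (-0.51 ± 0.12) and Bst2 (-0.51 ± 0.10) were lower (2 of 10, all genes 32.2%). This comparison too carried a GC trend (rho -0.493 over all genes). With trends removed 1 of 10 passed both limits, Cmpk2 at 1.62, where 574 of 10122 genes tested were called higher. By adjusted p alone 7 of 10 were then higher and 0 lower, with Isg15 at -0.22, Bst2 at -0.08 and Ifi44 at 0.81. The share of all genes by adjusted p alone was not taken in this setting, so that count cannot be read as particular to the 10 genes.

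With RNY1-/- fluid the median log2 fold change of ProteinFx against EVFx was -0.425 over the 10 genes, beside 0.385 with RNY1+/+ fluid. In edgeR 0 of 10 genes passed both limits (all genes in either direction, 9.03%), DESeq2 also called 0, and 5 of 10 were at an unadjusted p under 0.05, against 38.8% of all genes. By adjusted p alone Rsad2 (-0.77 ± 0.20, adjusted p = 0.011), Herc6 (-0.73 ± 0.16, adjusted p = 0.00391) and Isg15 (-0.71 ± 0.17, adjusted p = 0.00609) were lower with ProteinFx (3 of 10, against 14.1% of all genes). Same-numbered libraries deviated together in this comparison, and with the replicate number as a block 6 of 10 were lower by adjusted p. Without RNY1-/- EVFx replicate 3, 7 of 10 were. The share of all genes by adjusted p alone was not taken in either setting, so these counts cannot be read as particular to the 10 genes. All 10 genes overlapped between these groups in single libraries.

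Among themselves the effectors moved together from library to library within the EVFx groups. Replicate 3 was the lowest library of its group for 10 of 10 genes with RNY1+/+ EVFx and for 10 of 10 with RNY1-/- EVFx, with a median deviation of -0.48 and -0.69 from the group mean in log2 CPM. These were also the libraries with the lowest totals of their groups, 4994483 and 4059987 counts, and the part of depth in this pattern was not tested. How many of all genes were lowest there was not counted. Over all genes, replicate 3 of RNY1+/+ EVFx differed from replicates 1 and 2 by 9.95 and 5.91 times the squared difference of counting alone. With RNY1-/- EVFx it was 8.69 and 9.03 times, against 3.49 and 3.06 between replicates 1 and 2 of these groups. A shift of these genes and one of whole libraries were thus not told apart. In RNY1+/+ ProteinFx the median deviations of the 4 libraries lay between -0.12 and 0.10. The RNY1-/- ProteinFx libraries did not move together: replicates 3 and 4 were above the group mean for Ifi44 and Herc6 and below it for Bst2.

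**Figure D5:**
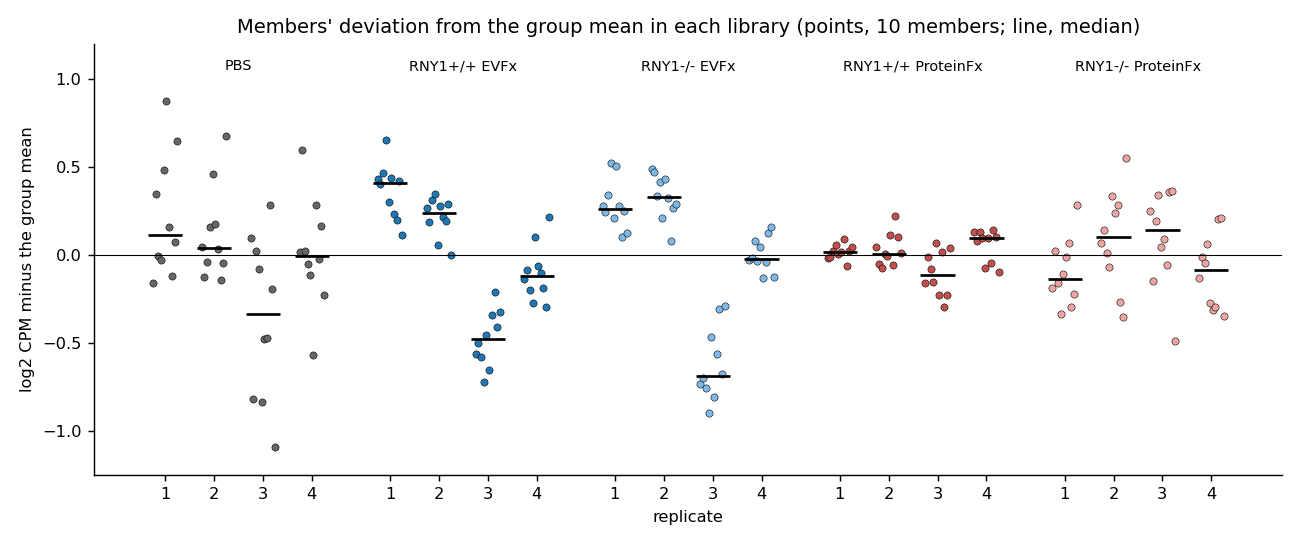
Deviation of each gene from its group mean in log2 CPM (y axis, TMM-scaled) in each library (x axis, replicate number within the 5 groups), with a line at the median of the 10 genes. All 10 points lie below 0 in replicate 3 of both EVFx groups, and the RNY1+/+ ProteinFx libraries are the most tightly grouped.

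Over the 20 libraries, the correlation of each gene's log2 CPM with the mean standardised profile of the other 9 was 0.941 to 0.992 (Pearson's r), except for Bst2 at 0.758. Of 7541 other genes with a mean of at least 10 CPM, those most like the joint profile of the 10 were Ifit3 (r = 0.996), Rigi (0.994), Tor3a (0.991), Gbp2 (0.99) and Phf11b (0.989). The 20 points share 5 treatments, and r includes the difference between PBS and the fraction groups.

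The rest of the ISG15 system moved less than the modifier. Of Uba7 (the activating enzyme), Ube2l6 (the conjugating enzyme), Trim25 and Arih1 (further ligases), 2 of 4 rose past both limits with RNY1+/+ EVFx, Uba7 (1.98 ± 0.15, adjusted p = 1.84e-06) and Ube2l6 (1.86 ± 0.33, adjusted p = 0.000961). With RNY1+/+ ProteinFx 1 of 4 did, Uba7 (1.76 ± 0.15, adjusted p = 2.15e-06), where Ube2l6 stood at 0.98 ± 0.33, adjusted p = 0.0267 and Trim25 at 0.26 ± 0.10, adjusted p = 0.053. That count was 2 of 4 with DESeq2, with the replicate block, with trends removed, and without PBS replicate 1, PBS replicate 2 or RNY1+/+ ProteinFx replicate 2. In both RNY1-/- groups 1 of 4 rose, Uba7. Between genotypes, Ube2l6 was lower with RNY1-/- EVFx (-1.17 ± 0.16, adjusted p = 0.000221), and in ProteinFx the largest difference was that of Uba7, which did not pass (-0.38 ± 0.12, adjusted p = 0.1). The median log2 fold change of the 4 genes against PBS was 1.16 with RNY1+/+ EVFx, 0.62 with RNY1+/+ ProteinFx, 0.61 with RNY1-/- EVFx and 0.462 with RNY1-/- ProteinFx.

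Upstream, transcripts of interferon itself were at the limit of counting. Ifnb1 had at most 5 counts in any library and 0 in every PBS library, and Ifna1, Ifna2 and Ifna4 had 0 counts in all 20. Of the 18 genes of interferon production and signalling examined, 14 were measured with RNY1+/+ ProteinFx and PBS, of which 6 rose past both limits and 1 fell. With RNY1+/+ EVFx 6 of 13 measured rose, and with either RNY1-/- fraction 5 of 13, while 1 fell with RNY1-/- EVFx, Irf8 (-1.38 ± 0.17, adjusted p = 4.97e-05). Socs3, an inhibitor of cytokine signalling, went from 0.618 to 1.14 CPM in PBS libraries to 36.0 to 74.4 CPM with RNY1+/+ ProteinFx. With RNY1+/+ ProteinFx the gene that fell was Irf8, a transcription factor of the myeloid lineage (-1.10 ± 0.16, adjusted p = 0.00017), and Irf3 was lower by adjusted p alone (-0.72 ± 0.15, adjusted p = 0.00171). Between genotypes in ProteinFx, 3 of 14 were lower by adjusted p, Socs3 (-1.55 ± 0.23, adjusted p = 0.00171), Socs1 (-0.99 ± 0.19, adjusted p = 0.00886) and the receptor chain Ifnar1 (-0.47 ± 0.10, adjusted p = 0.0167), the last named after its value was seen. In EVFx 8 of 14 were lower and 1 higher by adjusted p (all genes, 26.6% and 25.5%). There Socs3 stood at -1.07 ± 0.12, adjusted p = 0.000199 and Socs1 at -0.85 ± 0.23, adjusted p = 0.00781. Past both limits 1 of 14 was lower in EVFx, and 0 with length and GC trends removed.

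Of 28 other interferon-stimulated genes listed, 27 were measured. Past both limits 27 rose with RNY1+/+ EVFx, 26 with RNY1+/+ ProteinFx, 23 with RNY1-/- EVFx and 26 with RNY1-/- ProteinFx, and Ifi35 was the gene that did not pass with RNY1+/+ ProteinFx (0.28 ± 0.39, adjusted p = 0.557). Ifit1bl1 (6.50), the guanylate-binding protein gene Gbp2 (5.37) and Ifit1 (5.25) rose furthest with RNY1+/+ ProteinFx. Between genotypes in ProteinFx their median was -0.365, 13 of 27 were lower by adjusted p and 2 past both limits, Ifit1bl1 and Ifit1. The last count was 1 with DESeq2, with library totals alone, with scaling to the reference genes, and without any 1 of RNY1+/+ ProteinFx replicates 1, 2 and 4 or RNY1-/- ProteinFx replicates 1 and 2. The median of the 10 effectors in that comparison was -1.02. Whether the 2 lists differ was not tested.

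Inflammatory genes that depend on NF-kB, a pathway separate from the interferon receptor, were listed for comparison. Against PBS 15 of 17 measured rose past both limits with RNY1+/+ EVFx, 14 of 16 with RNY1+/+ ProteinFx, 15 of 17 with RNY1-/- EVFx and 7 of 15 with RNY1-/- ProteinFx. Of 16 measured between genotypes in ProteinFx, 10 were lower past both limits, among them Il1b (-2.74 ± 0.47, adjusted p = 0.00478), Cxcl3 (-2.28 ± 0.43, adjusted p = 0.00797) and Il1a (-2.07 ± 0.37, adjusted p = 0.00581). The median of the 16 was -1.14. Between genotypes in EVFx 3 of 17 were lower past both limits, 11 were lower and 1 higher by adjusted p alone, and the median was -0.375. Against PBS with RNY1+/+ ProteinFx, Tnfaip2 went the other way from the rest of the list (-0.72 ± 0.11, adjusted p = 0.000255). The enzymes of nucleotide metabolism listed beside Cmpk2 and viperin mostly did not share their rise. With RNY1+/+ ProteinFx 2 of 7 measured rose past both limits, Nt5c3 (2.52 ± 0.12, adjusted p = 1.39e-08) and the dNTP hydrolase Samhd1 (1.54 ± 0.10, adjusted p = 2.12e-07), and Tk2 was lower by adjusted p alone (-0.55 ± 0.14, adjusted p = 0.00679). Between genotypes in ProteinFx, Nt5c3 stood at -0.37 ± 0.11, adjusted p = 0.0722, Samhd1 at -0.16 ± 0.10, adjusted p = 0.387 and Tk2 at 0.15 ± 0.14, adjusted p = 0.64, and the median of the 6 measured was -0.0315. The reference genes Rab14, Arpc2 and Cltc did not pass both limits in any comparison. The study had picked them from these same data for small changes between PBS and RNY1+/+ ProteinFx and between genotypes in ProteinFx. Their result in those comparisons was thus fixed beforehand, and scaling to them rests on the same choice.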

How the data were processed

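The 20 libraries held RNA of mouse BMDMs, sequenced from the 3′ end with unique molecular identifiers. Per the labels and the study's methods, the authors' provider trimmed reads with fastp 0.24.0, aligned them with STAR 2.7.11, collapsed identifiers with UMIcollapse and counted exons and 3′ UTRs by strand with featureCounts (Subread 2.1.1). The build was GRCm39 per the submitters' processing notes, and the annotation release is not given in the sources used here. The deposited expected counts are not whole where reads that map to several places were shared out as fractions (23.6% to 26.3% of the genes detected in a library), and the deposited CPM are those counts over the library total, scaled to 1000000.

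Counts were rounded to whole numbers and tested with edgeR 4.0.16 (R 4.3.3): TMM scaling, filterByExpr plus a minimum mean level of 3 CPM, the quasi-likelihood test, and Benjamini-Hochberg adjustment over the 10321 to 10855 genes tested. A gene was called at an adjusted p under 0.05 with a log2 fold change beyond 1. Each fit held the 8 libraries compared, and the interaction fit held 16. Groups and replicate numbers came from the sample titles. The scripts were tested on simulated data. Alternatives were DESeq2 1.42.0, other scalings, filters and fold limits, 1 fit of all libraries, thinned counts, a replicate block, removal of length and GC trends, pairs of RNY1-/- ProteinFx libraries and leaving out each library. The replicate block combined with trend removal was added after the data were seen. Shares of all genes past adjusted p alone were taken for the reported fits and not for the alternatives.

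Taken over all genes, same-numbered libraries deviated together (every correlation of deviations over 0.1) in 2 comparisons only. These were RNY1-/- EVFx with PBS (0.129 to 0.381) and RNY1-/- ProteinFx with RNY1-/- EVFx (0.218 to 0.399). RNY1-/- ProteinFx with PBS had higher values for replicates 1 to 3 (0.511, 0.623 and 0.641) and 0.018 for replicate 4. With the block 10 of 10 genes rose there by adjusted p alone, against 9 as reported, so that Bst2 passed that limit too. The labels do not say what the numbers mark. In the 2 comparisons named first the blocked value is given where it changed a call.

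The 10 genes and the gene lists (ISG15 partners, interferon system, other interferon-stimulated genes, NF-kB-dependent genes, nucleotide enzymes, reference genes and cell type markers) were chosen with earlier results of these data known. From each list up to 3 genes with the largest change in RNY1+/+ ProteinFx against PBS, and those against the majority, were named. Promoter sequence, transcript length and GC content came from GRCm38, and length and GC content were found for 96.7% to 97.1% of genes tested.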

Additional observations from a re-analysis of the deposited data

Results flagged for a closer look

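In 50 groups of 4 libraries (10 genes in 5 groups), 2 had a library set far from the other 3, and chance alone gives about 1 in 20 groups. The Cmpk2 level of PBS replicate 2 was 43.3 CPM, with the other 3 PBS libraries between 37.0 and 37.3 CPM. The Herc6 level of RNY1-/- EVFx replicate 3 was 203 CPM, with the other 3 between 257 and 268 CPM.

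For 7 of the 10 genes the genotype difference was not the same in the 2 fractions by the interaction test (edgeR, adjusted over all genes). The difference in ProteinFx minus that in EVFx, in log2 units, was -1.67 for Cmpk2, -1.59 for Rsad2, -1.15 for Mx1, -1.13 for Ifi44, -1.06 for Herc6, -0.82 for Usp18 and -0.77 for Mx2. As the fractions were dosed by particle number and by protein mass, a difference between fractions and one between doses cannot be told apart.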

How the results depend on the processing

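Numbers of the 10 genes called past both limits were within 1.5 times the reported number in 173 of the settings tried, larger in 9 and smaller in 7. Without a fold limit 4 were called between genotypes in EVFx (0 reported), 9 between genotypes in ProteinFx (5 reported), 8 between RNY1+/+ fractions (2 reported) and 3 between RNY1-/- fractions (0 reported), and with a limit of 0.5 these were 3, 9, 6 and 3. Library totals alone gave 3 between genotypes in ProteinFx and 2 in the interaction (5 reported). RNY1-/- ProteinFx replicates 1 and 2 alone gave 3 between genotypes and 1 between RNY1-/- fractions (Herc6), and replicates 3 and 4 alone gave 2 in the interaction. With length and GC trends removed 1 was called between RNY1+/+ fractions. Leaving out each library in turn gave 3 to 6 between genotypes in ProteinFx (3 without RNY1-/- ProteinFx replicate 4), 3 to 5 in the interaction (3 without RNY1+/+ EVFx replicate 3), 2 to 3 between RNY1+/+ fractions, and 9 to 10 for RNY1+/+ ProteinFx and for RNY1-/- EVFx against PBS. Where no cause is given, the cause was not tested.

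Signs changed only for differences that did not pass, except that Herc6 between RNY1+/+ fractions (0.33 reported) became -0.12 with trends removed. Isg20 between genotypes in EVFx became 0.24 with trends removed, and Mx1 there ranged from -0.29 to 0.071 over the left-out libraries. Bst2 between genotypes in ProteinFx was 0.094 with replicates 1 and 2 alone. Between RNY1-/- fractions, where the values lay near 0, scaling to the 3 reference genes gave -0.000456 for Cmpk2, -0.027 for Ifi44 and -0.095 for Bst2. There Bst2 was -0.025 with the replicate block, -0.012 with trends removed, -0.026 with both and -0.47 with replicates 3 and 4 alone, and replicates 1 and 2 alone gave -0.13 for Cmpk2 and -0.25 for Ifi44. Over the left-out libraries Cmpk2 ranged from -0.14 to 0.26, Ifi44 from -0.12 to 0.17 and Bst2 from -0.18 to 0.17.

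With the replicate block 10, 10, 10 and 9 genes were called against PBS (RNY1+/+ EVFx, RNY1+/+ ProteinFx, RNY1-/- EVFx, RNY1-/- ProteinFx), 0 and 6 between genotypes in EVFx and ProteinFx, 2 and 0 between RNY1+/+ and RNY1-/- fractions, and 5 in the interaction. By adjusted p alone the block gave 4 higher and 4 lower between genotypes in EVFx. There same-numbered libraries did not deviate together over all genes (correlations of -0.133 to 0.296). For the 10 genes, however, replicate 3 was the lowest library in both groups. The share of all genes by adjusted p alone was not taken with the block. With library totals alone the median over all genes was as low as -0.271 (RNY1-/- EVFx against PBS), where it was -0.0317 as reported. Depth limits Mx2 most, with 4 counts in its lowest library, and Ifnb1, with 5 counts in its highest.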
